A study of Arabidopsis thaliana with 12 samples.

Results

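The genes described here are those whose transcript level was higher after antimycin A in Arabidopsis thaliana seedlings kept on the synthetic auxin NAA, with a difference of at most 0.3 on the log2 scale in seedlings kept on plain B5 medium. They were chosen by group means of log2(intensity + 16): the difference between seedlings with and without antimycin A had to be at least 1.2 on NAA and at most 0.3 on B5. Of 22746 probe sets on the array, 53 passed both thresholds, 5 of these were left out by name, and 48 remained as members. The 5 are among 17 genes that the rule sets aside, with all SCPL, ATG and organelle genes, of which none passed both thresholds. A member is a probe set, the group of short probes that reads 1 transcript or a few similar ones. Of the 48, 22 read 1 annotated gene each, 1 reads several genes, and 25 have no gene in the annotation used here and are called by probe set.

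RNA came from whole seedlings of the line Col:LUC, in the Col-0 background, with 1 Affymetrix array per sample and 3 arrays in each of 4 groups. All seedlings grew for 10 days on B5 medium and for 3 more days on fresh plates, of B5 alone or of B5 with 4.5 µM NAA. Within each medium, 1 group was left untreated and the other received 50 µM antimycin A for 3 hours. The groups are called B5, treated B5, NAA and treated NAA, where treated means given antimycin A, and treated NAA is also called the double treatment. The labels call the 3 samples of a group biological replicates, and the growth notes also mention another line, Attim17-1, which none of the 12 sample titles names. The sources used here do not say whether untreated seedlings received a solvent.

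Antimycin A blocks complex III of the mitochondrial respiratory chain, so that electrons back up, reactive oxygen species form, and genes in the nucleus are switched on or off in what is called mitochondrial retrograde signalling. NAA acts as an auxin, the hormone that drives lateral root formation and much of cell expansion, through receptors that release auxin response factors from Aux/IAA repressors. Stress signalling and auxin signalling are known to act on each other in Arabidopsis.

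Most probe sets that were higher with antimycin A on NAA were so on both media. Of 772 probe sets at 1.2 or more on NAA, 587 were also at 1.2 or more on B5, 132 lay between 0.3 and 1.2 there, and 53 (6.87%) were at or below 0.3. The 48 members had a median difference with antimycin A of 1.40 on NAA (1.202 to 2.762) and of 0.03 on B5 (-1.78 to 0.29). On B5, 45 of them lay within 0.3 of no change, and 3 were lower by more than that. Small shifts on B5 were nonetheless seen, in smaller shares than over all probe sets. Every treated B5 array was above every untreated one in 9 of the 48 members (36.7% of all probe sets) and below in 4 (24.0%). The 9 include AT1G33790 and AT1G12030, at 0.28 and 0.25, and AT5G43520, at 0.008 with B5 group means of 4.13 and 4.24. These values chose the members and are a description, with no test. At the edge on NAA, the last members were the probe set 266346_at (1.202), AT2G39110 (1.203) and AT3G20340 (1.207), and the nearest outside were AT3G27150 (1.197), 245947_at (1.194) and 257504_at (1.189). At the edge on B5, the last inside were 256300_at (0.29), AT1G23710 (0.29) and AT1G33790 (0.28), and the nearest outside were 261585_at (0.30), 252081_at (0.33) and AT1G19530 (0.34).

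**Figure D1:**
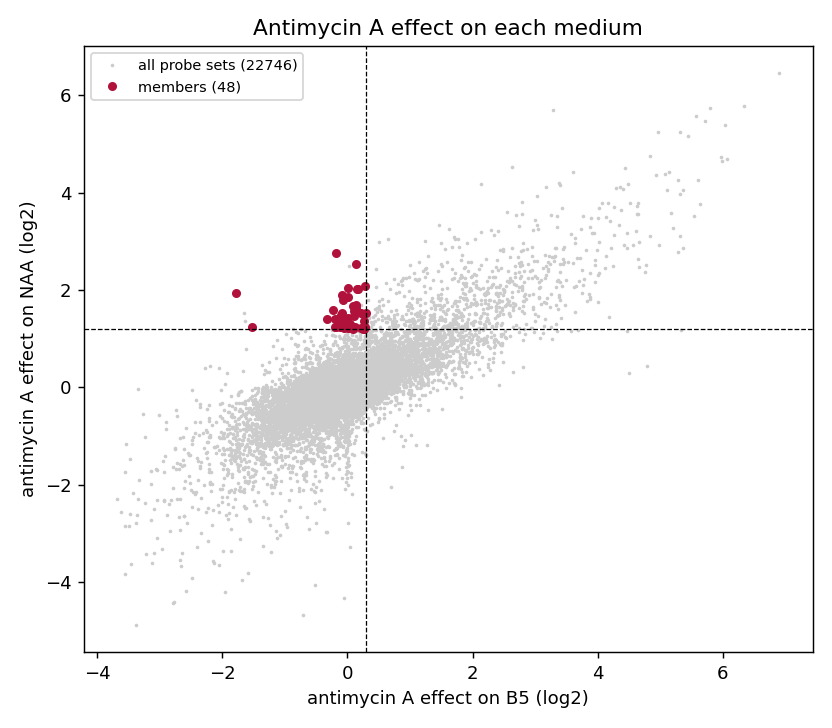
Difference with antimycin A on NAA (vertical axis, log2 scale) against that on B5 (horizontal axis, log2 scale) for 22746 probe sets in grey and the 48 members in red, with dashed lines at the thresholds of 1.2 and 0.3. The members fill the upper left corner next to the diagonal cloud, and 2 of them lie far to the left, at -1.78 and -1.52 on B5.

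The same measure was read in arrays that did not choose the genes. With the thresholds applied to the arrays of 2 replicate numbers, 49, 56 and 44 probe sets were chosen when number 1, 2 or 3 was left out, of which 35, 43 and 31 are among the 48. In the 4 arrays left out, 1 per group, the chosen probe sets had median differences with antimycin A of 1.21, 1.24 and 1.43 on NAA and of 0.01, 0.06 and 0.10 on B5. The medians on NAA in the arrays that chose them were 1.40, 1.47 and 1.44. In the arrays left out the difference on NAA was larger than that on B5 for 49 of 49, 56 of 56 and 42 of 44 probe sets. How many of all probe sets have this order there was not counted. Both thresholds were passed again in the arrays left out by 23 of 49, 23 of 56 and 22 of 44. The threshold on NAA was passed by 26, 29 and 30, and that on B5 by 42, 41 and 31. Membership thus depended on which arrays were used.

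Where the members stood before antimycin A differed among them, and on this they fall into 3 classes, drawn after their values were seen. A difference between NAA and B5 without antimycin A of at least 0.5 (log2) put 11 members in a class higher on NAA, one of -0.5 or less put 10 in a class lower on NAA, and 27 lay in between. Over all probe sets 6.95% were as much higher and 8.07% as much lower on NAA. Since the untreated groups are part of the rule, which favours low untreated values on NAA, these shares are not tested. After antimycin A the median difference between NAA and B5 was 2.496 for the class higher before, 1.48 for the class in between and 0.42 for the class lower before. This order can follow from the cut. Each treated difference is the untreated one plus the difference of antimycin A effects, which the rule makes positive in every member.

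**Figure D2:**
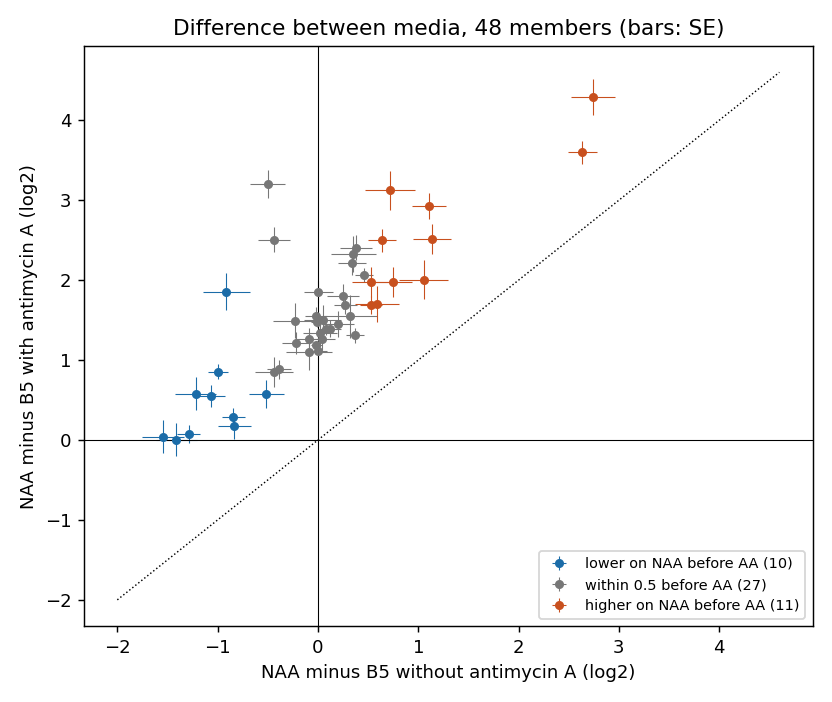
Treated NAA minus treated B5 (vertical axis, log2 scale) against untreated NAA minus untreated B5 (horizontal axis, log2 scale) for the 48 members, with the SE of the fit as bars and the dotted line marking equality. Every member lies above the line, as the rule requires, and the lower class ends between 0.01 and 1.86 on the vertical axis.

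Among the enzymes, AT1G14550, of the class III peroxidases that use hydrogen peroxide in the cell wall, read 3.62, 3.44 and 3.73 on B5, 3.35, 4.08 and 3.90 on treated B5, and 3.52, 3.77 and 3.67 on NAA. On treated NAA it read 79.3, 48.9 and 42.9. The 9 other arrays lay near the lowest values of the table, and the 3 arrays of the double treatment stood apart from all of them. UGT73D1, a glycosyltransferase of the family that joins sugars to small molecules, had the same form, with 5.64 to 7.01 on the 9 other arrays and 35.4, 32.04 and 40.7 on treated NAA. AT1G12010, of the ACC oxidase family that makes ethylene, read 18.11, 11.03 and 17.64 on B5, 18.19, 20.6 and 18.17 on treated B5, 24.0, 27.5 and 20.3 on NAA, and 114, 162 and 168 on treated NAA. Its NAA arrays were above all untreated B5 arrays, and the double treatment was far above both.

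AT5G02230, of the haloacid dehalogenase-like hydrolases, read 146, 174 and 152 on B5, 132, 144 and 128 on treated B5, 246, 195 and 227 on NAA, and 591, 601 and 646 on treated NAA. On B5 its 3 arrays with antimycin A were all below the untreated ones, by a small margin (-0.20 ± 0.09, SE), and on NAA all were above. AT5G07860, of the HXXXD-type acyltransferases, belongs to the class lower on NAA: it read 267, 316 and 261 on B5, 297, 321 and 331 on treated B5, 149, 118 and 132 on NAA, and 635, 540 and 583 on treated NAA. Its untreated NAA arrays were the lowest of the 12, and its arrays of the double treatment the highest. AT1G80380, glycerate kinase, the enzyme that returns photorespiratory glycerate to the Calvin cycle, read 764, 698 and 651 on B5, 800, 726 and 713 on treated B5, 434, 391 and 336 on NAA, and 1065, 810 and 880 on treated NAA. It too was lowest on NAA alone, and the double treatment lay only a little above B5, the group means being 918 ± 132 against 704 ± 56.5 and 746 ± 46.8 (SD, n = 3).

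**Figure D3:**
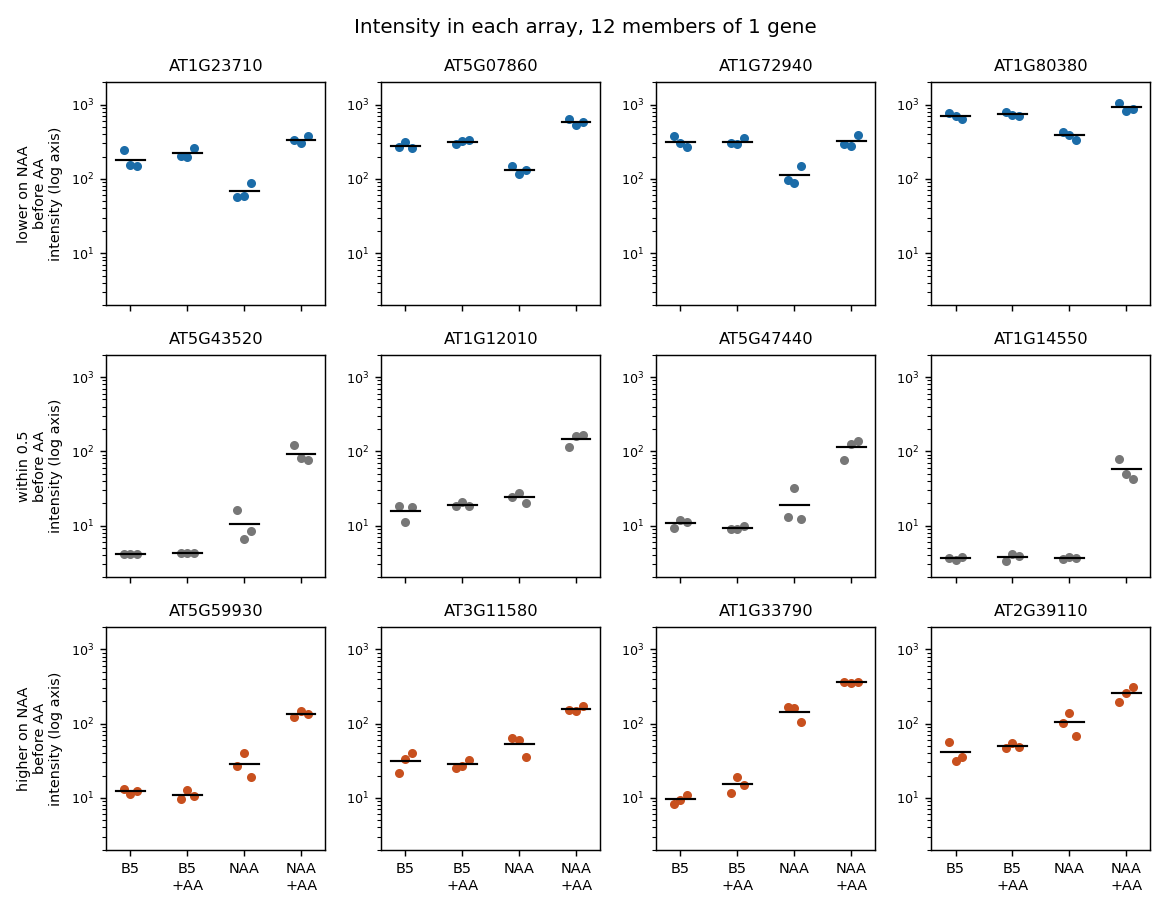
Intensity in each of the 12 arrays (points; vertical log axis, horizontal axis by group, AA standing for antimycin A) with group means as bars, for 4 genes of each class: lower on NAA before antimycin A (top row), in between (middle), higher (bottom). In all 12 panels the 3 arrays of treated NAA lie above the 3 of NAA alone, and AT1G72940 is the one panel where they overlap the B5 arrays.

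Among genes of signalling and regulation, AT1G72940, which encodes a Toll/interleukin receptor domain with a nucleotide-binding site as in plant immune receptors, read 379, 306 and 271 on B5 and 302, 298 and 355 on treated B5. On NAA it read 95.5, 87.4 and 151, and on treated NAA 297, 276 and 394. The double treatment thus overlapped both B5 groups, with means of 319 ± 55.4, 319 ± 31.9 and 322 ± 63.1 (SD, n = 3), and NAA alone stood below. AT3G11580, a B3-domain DNA-binding protein, read 21.7, 33.3 and 40.4 on B5, 25.3, 26.8 and 32.4 on treated B5, 64.3, 60.2 and 35.3 on NAA, and 152, 146 and 175 on treated NAA. Its untreated NAA arrays overlapped those on B5, though their mean was higher.

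Of 2 genes of the protein kinase family, AT2G39110 read 56.5, 31.4 and 35.1 on B5, 47.6, 55.0 and 49.2 on treated B5, 101, 141 and 68.9 on NAA, and 197, 258 and 312 on treated NAA. It rested near the threshold and had a wide spread on NAA. AT4G13190 read 8.94 to 10.3 over the 6 arrays on B5, 12.8, 25.2 and 11.3 on NAA, and 63.97, 32.2 and 97.2 on treated NAA. Its 3 arrays of the double treatment differed by more than 2-fold among themselves, and its group mean is the less certain for that (64.5 ± 32.5, SD, n = 3).

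Among proteins with known binding domains, AT1G33790, of the jacalin lectins that bind sugars, had the highest difference between media in level of the genes with a name. It read 8.34, 9.49 and 10.9 on B5, 11.6, 19.2 and 15.0 on treated B5, 168, 162 and 106 on NAA, and 363, 357 and 361 on treated NAA. All its NAA arrays stood above all B5 arrays, and antimycin A added to that. AT5G43520 and AT5G59930, both of the cysteine- and histidine-rich C1 domain family, followed the same order at lower levels. AT5G43520 read 4.08 to 4.26 over the 6 arrays on B5, 16.3, 6.61 and 8.53 on NAA, and 120, 81.2 and 77.5 on treated NAA. AT5G59930 read 9.74 to 13.1 over the 6 arrays on B5, 27.2, 39.7 and 19.3 on NAA, and 124, 149 and 137 on treated NAA. For both, NAA alone was already above untreated B5 in every array. AT2G35730, with a heavy metal-associated domain, read 6.07 to 10.0 on the 9 other arrays and 33.3, 59.9 and 75.1 on treated NAA.

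The other 8 genes are named without a role. AT1G23710 read 243, 153 and 147 on B5, 203, 200 and 259 on treated B5, 56.9, 59.0 and 87.9 on NAA, and 332, 301 and 377 on treated NAA. It had the largest difference with antimycin A on NAA among the 22 genes (2.09 ± 0.20, SE), and its highest level in the double treatment followed its lowest level on NAA alone. AT5G47440 had group means of 10.7 ± 1.34 on B5, 9.25 ± 0.50 on treated B5, 19.1 ± 11 on NAA and 113 ± 31.9 on treated NAA (SD, n = 3). AT1G12030, which lies near AT1G12010 in locus order, read 5.74 ± 1.34, 9.79 ± 2.17, 7.64 ± 0.50 and 52.1 ± 11.2 in the same order of groups (SD, n = 3). AT5G66780 and AT5G47740 were likewise dim in 3 groups and read 47.7 ± 19.2 and 37.2 ± 8.58 on treated NAA (SD, n = 3). AT2G37750, AT2G27830 and AT3G20340 started from 117 ± 34.9, 170 ± 26.2 and 19.6 ± 1.51 on B5 and reached 280 ± 71.9, 393 ± 7.26 and 90.06 ± 4.63 on treated NAA (SD, n = 3).

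The 25 probe sets without a gene name were spread over the same range, with 7 in the class higher on NAA before antimycin A, 6 in the lower class and 12 in between. The largest difference with antimycin A on NAA of all 48 was that of 248676_at (2.76), which read 291, 434 and 298 on B5, 275, 322 and 286 on treated B5, 213, 233 and 291 on NAA, and 1932, 1612 and 1704 on treated NAA. The 3 groups other than treated NAA overlapped, though NAA and B5 barely did (highest 291.43 against lowest 291.41). Before antimycin A this probe set was lower on NAA on average (-0.44 ± 0.16, log2, SE). The effect of antimycin A differed most between the media in the probe set 248606_at (3.71). It read 323, 228 and 273 on B5, 69.4, 91.2 and 48.6 on treated B5, 171, 203 and 190 on NAA, and 752, 786 and 739 on treated NAA. Antimycin A therefore went with lower arrays on B5 and higher arrays on NAA, with no overlap on either medium. The probe set 267357_at was of the same form at a higher level, with 895 to 1382 on B5, 261 to 451 on treated B5, 515 to 637 on NAA and 1218 to 1717 on treated NAA.

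In all 48 members the 3 arrays of treated NAA were above the 3 of NAA alone, where 17.2% of all probe sets show this, and the rule used that contrast. In 43 members they were above all 9 other arrays, against 4.54% of all probe sets, which the rule also favours. The 5 exceptions, AT1G72940 and the probe sets 252193_at, 255817_at, 267357_at and 266984_at, all belong to the class lower on NAA, and in them the double treatment overlapped B5. For that class of 10, the double treatment differed from untreated B5 by a median of 0.38 (log2, -0.05 to 1.02). All 10 had untreated NAA arrays below every untreated B5 array, which the cut that made the class favours. Of all 48 members 13 did, and 21.1% of all probe sets do. At the other end, 12 members, 7 of them with a gene name, had means below 16 in the 3 other groups and reached 36.04 to 93.0 in the double treatment. For these dim transcripts the log2(intensity + 16) scale understates the change.

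The tested comparison was the difference between both NAA groups and both B5 groups, averaged over antimycin A. Its error is independent of the 2 contrasts of the rule, but its size is not: a gene equal on both media before antimycin A had to be higher here by at least 0.45 to be a member. Over all 22746 probe sets limma called 16.1% higher and 13.7% lower (adjusted p under 0.05). Of the 48 members 36 were called higher, 4 lower and 8 not called, with a median of 0.77 beside -0.01 over all probe sets, and the rise can follow from the rule. The 4 called lower all belong to the class lower on NAA before antimycin A. The rule nearly fixes this, since a negative average needs a member lower on NAA by more than 0.45 before antimycin A. In these 4, treated NAA minus treated B5 was 0.01 to 0.29 (log2). These were AT1G72940 (-0.70 ± 0.14, SE; limma adjusted p = 0.00538), AT1G80380 (-0.28 ± 0.08, adjusted p = 0.0323) and the probe sets 252193_at (-0.75 ± 0.15, adjusted p = 0.00442) and 255817_at (-0.61 ± 0.08, adjusted p = 0.000526). The call of AT1G80380 was lost without 8 of the 12 arrays in turn (adjusted p of 0.052 to 0.072) and with array weights (adjusted p = 0.0799).

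The highest averaged differences were those of 247052_at (3.51 ± 0.16, SE; limma adjusted p = 1.24e-06) and AT1G33790 (3.12 ± 0.10, adjusted p = 2.52e-07), well above 0.45. Both were higher on NAA in every array before antimycin A. They were followed by the probe sets 245998_at (2.02 ± 0.12, adjusted p = 4.76e-06), 265170_at (1.92 ± 0.18, adjusted p = 5.66e-05) and 253791_at (1.83 ± 0.14, adjusted p = 1.72e-05). Next came AT5G59930 (1.57 ± 0.10, adjusted p = 7.57e-06) and AT2G39110 (1.53 ± 0.17, adjusted p = 0.000196). From 245998_at to AT2G39110, NAA was higher than B5 by 0.64 (AT5G59930) to 1.14 (253791_at) before antimycin A. The rest of each average comes from the difference that chose the members. The smallest called rises among named genes were those of AT5G47740 (0.55 ± 0.07), AT2G27830 (0.58 ± 0.10) and UGT73D1 (0.59 ± 0.04). These 3 were level between the media before antimycin A, so their averaged rise restates the difference that chose them.

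**Figure D4:**
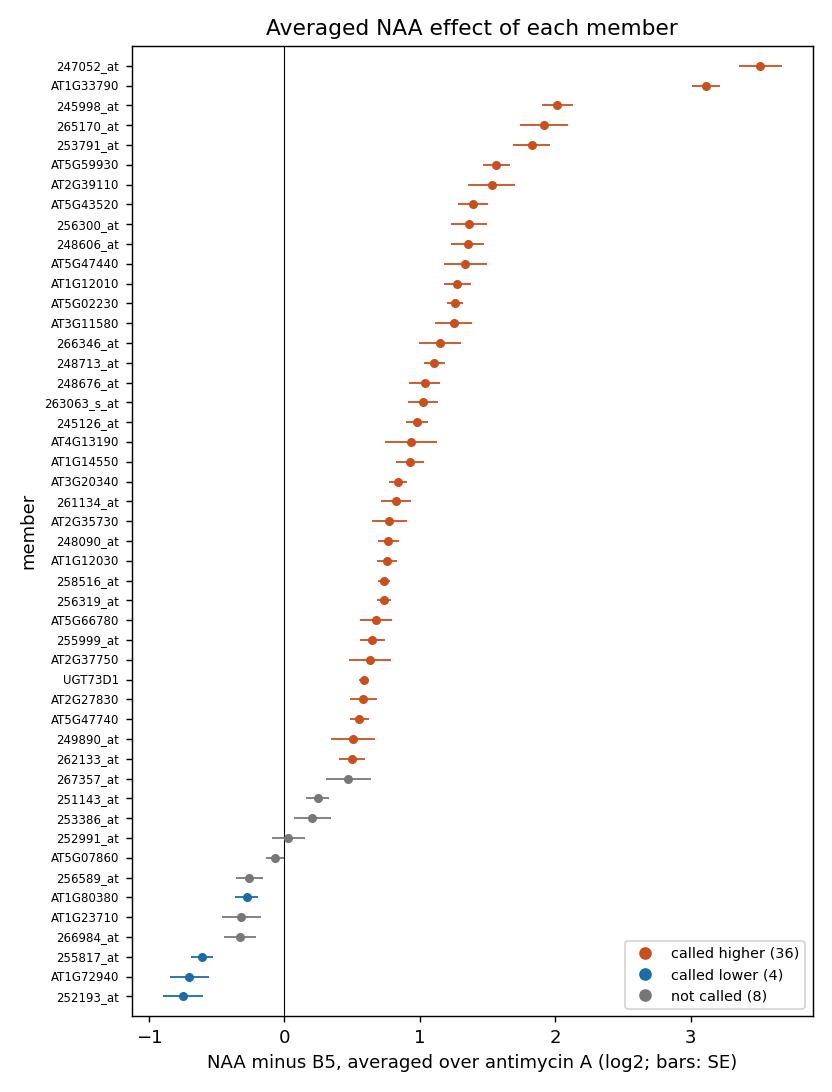
Difference between NAA and B5 averaged over antimycin A (horizontal axis, log2 scale, SE of the fit as bars) for each of the 48 members, sorted. The 36 called higher are orange, the 4 called lower blue and the 8 not called grey.

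Beside the members, 587 probe sets were at 1.2 or more on both media and 50 at 1.2 or more on B5 but at most 0.3 on NAA. In these sets the averaged NAA difference was called higher for 17.9% and 12% and lower for 28.8% and 50.0%, against 75.0% and 8.33% of the members. The members and the set induced on B5 alone were chosen in ways that move these shares in opposite directions, and no test of the differences was made. Before antimycin A, 20.8% of members were lower on NAA by at least 0.5, against 9.37% of the set induced on both media and 0% of the set induced on B5 alone. As much higher on NAA were 11 of the 48 members, 107 of the 587 induced on both media and 19 of the 50 induced on B5 alone. The choice favours low untreated values on NAA in the members and high ones in the set induced on B5 alone. These shares were not tested either.

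Other genes of hormone, nutrient, stress and cell type lists give the setting, though few of them have a named probe set. That no member stands in these lists says little, since 25 members have no gene name and IAA30, of the auxin list, and IVD, of the amino acid list, passed both thresholds but were set aside by name. For antimycin A on NAA, limma called 11.6% of all probe sets higher and 13.2% lower, and on B5 14.3% higher and 18.7% lower. Of 13 measured of 69 auxin response and transport genes, 5 were called higher and 2 lower on NAA (median 0.18), and 4 higher and 1 lower on B5 (median 0.03). Of 14 genes of amino acid breakdown, 3 were higher and 3 lower on NAA (median 0.06), and 1 higher and 6 lower on B5 (median -0.30). Of 11 starvation and dark-induced genes, 1 was higher and 2 lower on NAA (median -0.13), and 3 higher and 3 lower on B5 (median -0.18). The 2 measured of 24 ethylene genes were both called higher on NAA (median 0.46), and on B5 1 of them was lower. All 4 measured genes of the mitochondrial retrograde list were higher on NAA (median 2.2) and 3 on B5 (median 2.21).

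In whole seedlings a change in the share of a cell type and a change of RNA per cell cannot be told apart. Of the lists of cell type markers, 4 had measured genes. The 2 lateral root primordium markers summed to 13.8 to 17.5 over both B5 groups, 245 to 333 on NAA and 120 to 135 on treated NAA. The 2 root hair markers summed to 124 to 202 on B5, 20.7 to 21.2 on treated B5, 467 to 648 on NAA and 45.0 to 64.1 on treated NAA, lower with antimycin A where the members were higher. The 4 mesophyll markers summed to 33561 to 35215 on B5, 17126 to 21117 on treated B5, 20314 to 22788 on NAA and 11096 to 15641 on treated NAA. The 3 guard cell markers summed to 23.9 to 52.1 over all arrays. Endodermis, phloem, xylem, root cap and seed markers had no measured gene.

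A control for 25S ribosomal RNA on the array read 4993 to 5651 on B5, 8135 to 8446 on treated B5, 5584 to 6535 on NAA and 11673 to 12276 on treated NAA, and was thus highest where the members were highest. The ratio of the 3′ to the 5′ control probe set of GAPDH, a gauge of RNA integrity, was 9.24 to 28.7 on 11 arrays and 48.9 on replicate 2 of NAA. The high values were not limited to that array. Replicate 2 had the highest ratio of its group on treated B5, on NAA and on treated NAA (28.7), and replicate 3 had it on B5. Without replicate 2 of NAA alone, 48 probe sets passed the rule, 43 of them among the members. The part of cell type markers, ribosomal RNA and RNA integrity in the results was not tested. Within treated NAA, replicate 3 was the highest of the 3 arrays for 24 members, replicate 1 for 17 and replicate 2 for 7, and the median intensity of the members was 197, 190 and 221 in replicates 1, 2 and 3.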

How the data were processed

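The deposited table holds linear intensity values, 1 column per array. MAS5, RMA and Partek are named, without role or order, in the submitters' processing notes. No normalization is recorded, and the table holds no detection calls. Of 22810 rows, 64 controls were left out and 22746 tested as log2(intensity + 16). Genes came from the array's annotation table (13513 probe sets with 1 gene, 503 with several, 8730 unnamed here) and symbols from RefSeq (TAIR10.1).

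The linear model of limma 3.58.1 (R 4.3.3) was fitted to the 12 arrays together, with a mean per group (8 residual degrees of freedom), empirical Bayes moderation and two-sided tests, Benjamini-Hochberg adjusted over all probe sets and tested on simulated data. Groups and replicate numbers came from sample titles. Deviations of same-numbered arrays correlated at -0.10 to 0.35 over 18 pairs (median 0.07). Those of arrays with different numbers correlated at -0.33 to 0.28 over 36 pairs (median -0.04). Replicate 2 of treated B5, of NAA and of treated NAA correlated with each other at 0.26 to 0.35. Replicate 2 of B5 correlated with them at -0.10 to 0.08, and replicate 1 of B5 with that of NAA at 0.29. The numbers were not taken to pair samples in the main fit. A replicate block was fitted as an alternative, and an effect shared by a number was not itself tested. The precision is limited by 3 arrays per group. Members and lists were chosen with earlier results of these data known, and their functional groups after their values were seen. Per-array values are given for the genes with the largest differences and by functional group. Promoter motifs were not analysed here. Alternatives were other pseudocounts, normalizations, filters, variance models, thresholds, a replicate block and each array left out.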

Additional observations from a re-analysis of the deposited data

Results flagged for a closer look

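In 4 members every array with antimycin A was below every untreated array on B5 and above every untreated array on NAA. The differences with antimycin A on B5 were -1.78 for 248606_at, -1.52 for 267357_at, -0.20 for AT5G02230 and -0.19 for 245126_at (log2). The difference between the media is part of the rule that chose these genes and was not tested. On B5, 24.0% of all probe sets lie below in every array. In 9 other members every array with antimycin A was above every untreated array on B5 as well as on NAA. On B5, 36.7% of all probe sets lie above in every array.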

How the results depend on the processing

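The number of members depended mainly on the scale and the thresholds. It was 76 with a pseudocount of 1 (36 shared with the 48) and 14 with a pseudocount of 64 (12 shared), 83 and 19 with thresholds of 1.0 and 1.5 on NAA, and 17 with a threshold of 0 on B5. Quantile normalization gave 42, median centring 45, and leaving out each array in turn 41 to 52, the lowest without replicate 3 of NAA with antimycin A (36 shared). Among the members chosen with each threshold, the averaged NAA difference was called higher for 60 at 1.0 on NAA, 16 at 1.5 and 13 at 0 on B5, and lower for 0 at 1.5 and 1 at 0 on B5. Median centring, which moved the median of all probe sets from -0.01 to -0.12, gave 35 higher and 7 lower of the 48. It also called 14780 of all probe sets, against 6792 in the main fit, so its added calls are not particular to the members. Without each array in turn 35 to 37 were higher and 3 to 5 lower. With the replicate block 37 were higher and 4 lower. The settings that changed only a threshold of the rule reuse the main fit, so their values for the named members could not differ from it. Over the named members and all alternatives, these settings included, 532 values kept their direction and stayed called or not called. Of the others, 9 lost the call, all of AT1G80380, and 1 gained it, AT1G23710 with median centring (-0.42, limma adjusted p = 0.0251, with 0.0251 to 0.251 over all its alternatives). For AT1G80380 the adjusted p ran from 0.00222 to 0.0799 over all alternatives. The cause of these changes was not tested. Values near the pseudocount limit what can be said of dim members.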
